A study of Mus musculus with 16 samples.

Results

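The genes described here encode the enzymes of glycolysis, the pyruvate dehydrogenase complex with its kinases, and the citric acid cycle. They were taken from a list of 46 gene symbols, and a gene entered when the authors' deposited table held a row carrying that symbol alone. By this rule 43 of the 46 genes had values, in 53 rows, among 20170 genes with a single symbol. The genes Pdha1, Mpc1 and Mpc2 had no such row. One listed symbol, Pkm2, is now Pkm, and its row stands for the gene, not for one of its splice forms.

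HL-1 cells, a line grown from a transgene-induced mouse atrial tumour, were transfected with 10 nM of a scrambled siRNA or of the Airn siRNA named siAirn-001.1. Airn is a long non-coding RNA of the imprinted Igf2r locus, and all cells were grown in a serum-containing medium with norepinephrine. RNA was then precipitated from each with an antibody against Igf2bp2, a protein that binds mRNA and affects how long it lasts, where it goes and how it is translated, or with control IgG, labelled by an Affymetrix protocol and hybridised to arrays. Each of the 4 groups (scrambled siRNA with anti-Igf2bp2 or IgG, Airn siRNA with anti-Igf2bp2 or IgG) held 4 biological replicates. HL-1 is 1 immortalised line, so the replicates show the spread between cultures or precipitations of that line.

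Glycolysis splits glucose into pyruvate in the cytosol, in a preparatory phase that spends ATP and a payoff phase that returns it. Pyruvate becomes lactate through lactate dehydrogenase, or enters mitochondria, where pyruvate dehydrogenase turns it into acetyl-CoA for the citric acid cycle. Pyruvate dehydrogenase kinases switch the complex off by phosphorylation. Heart muscle runs mainly on fatty acids and keeps glucose and lactate as further fuels, and several of these steps have isozymes that are specific to muscle, brain, liver or testis.

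Values below are the authors' differences, anti-Igf2bp2 minus IgG, within one siRNA. The deposited table names no scale, and they are read as log2 values, as is usual for such arrays. A positive value means more of an RNA in the Igf2bp2 precipitate, and a difference of 1 is, on that reading, a doubling. The ± values are standard errors recovered from each deposited difference and its p-value. Each comparison set 4 arrays against 4, but 1 spread per row served both comparisons. The errors are therefore not the spread of the compared arrays alone. Single-array values were not used, so that replicates cannot be shown one by one, and differences do not give the level of any RNA in the cells. A gene was called at an adjusted p under 0.05 over all rows. Whether an RNA is precipitated by Igf2bp2 more readily than others, or is merely abundant in these cells, cannot be told apart from differences alone. The label of the cells could likewise not be tested on levels. In the authors' deposited table, 5 of 8 atrial cardiomyocyte markers with a row were called higher with the scrambled siRNA and none lower, at a median of 0.59. Nppa (0.19), Nppb (0.14) and Gja5 (-0.255) were the ones not called. Among all genes, 25.5% were called higher and 17.2% lower in that comparison. Markers of fibroblasts, endothelium and leukocytes had medians of -0.29, -0.07 and -0.23 there. Of the 5 fibroblast markers, Dcn was called higher (0.89) and Pdgfra lower (-0.66) in the authors' deposited table. Of 4 leukocyte markers, Cd68 was called higher (0.50) and Ptprc (-0.64) and Lyz2 (-1.17) lower in the authors' deposited table. Of 4 endothelial markers, Cdh5 was called lower (-0.60) and none higher in the authors' deposited table. The 3 smooth muscle markers had a median of 0.94, with 2 called higher but 1 lower in the authors' deposited table. Their part in the results below was not tested.

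With the scrambled siRNA, most transcripts of these pathways were higher in the Igf2bp2 precipitates. The authors' deposited table called 33 of 43 genes higher and none lower, with a median difference of 0.63 and a range from -0.03 to 1.27. Over all 35556 rows, 20.4% were called higher in that comparison and 16.8% lower, and with 1 row per gene the shares were 25.5% and 17.2%. The median over all genes of the authors' deposited table was -0.05. The lead was moderate in size: 36 genes lay between 0.4 and 1, only 4 lay above 1, and genes called higher anywhere in the table had a median of 0.79, against 0.66 for the 33 called here. These 4 were Dld, Idh1, Idh3a and Suclg2, the last in the more precise of its rows.

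**Figure D1:**
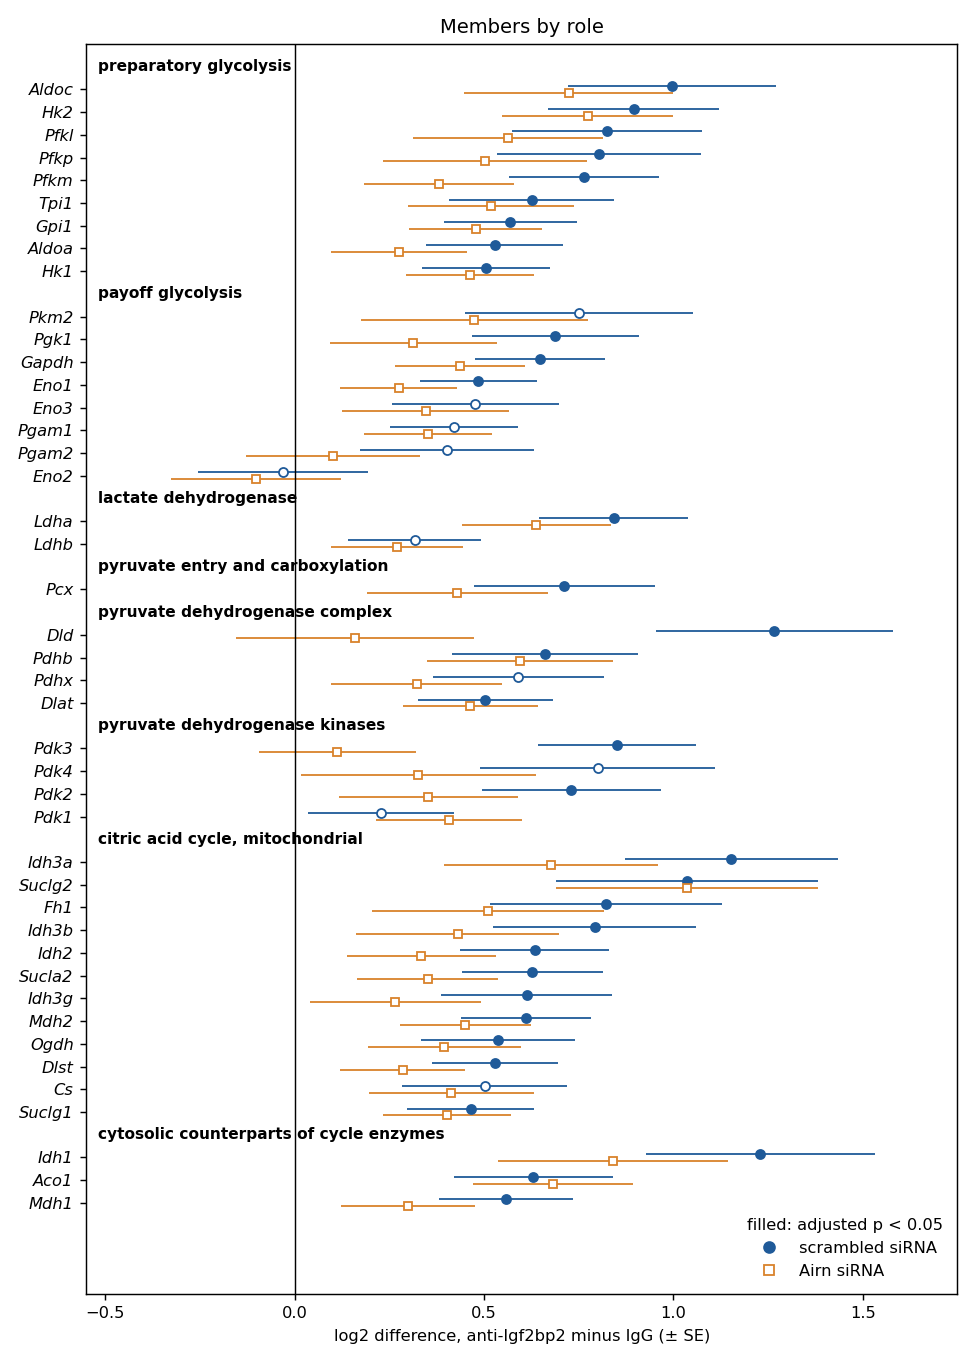
Log2 difference, anti-Igf2bp2 minus IgG (x axis) for each of the 43 genes, grouped by role, with the scrambled siRNA (circles) and the Airn siRNA (squares); bars are recovered standard errors and filled symbols have an adjusted p under 0.05. With the scrambled siRNA 42 genes lie above 0 and 33 are filled; with the Airn siRNA 42 lie above 0 and none is filled.

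The preparatory phase of glycolysis was called as a whole. The authors' deposited table called all 9 of its genes higher with the scrambled siRNA, against 25.5% of all genes. Their median was 0.76. Aldoc, the brain-type aldolase that cleaves fructose bisphosphate, led with 0.996 ± 0.28 (adjusted p = 0.0177, per the authors' deposited table). Hk2, the insulin-regulated hexokinase of muscle that traps glucose in the cell, followed with 0.895 ± 0.23 (adjusted p = 0.0135, per the authors' deposited table). The more widely expressed hexokinase Hk1 stood at 0.505 ± 0.17 and was called as well (adjusted p = 0.0321, per the authors' deposited table). The 3 phosphofructokinases, which catalyse the committed step, lay within their errors of each other. Pfkl of liver type stood at 0.825 ± 0.25, Pfkp of platelet type at 0.804 ± 0.27 and Pfkm of muscle type at 0.763 ± 0.20 in the authors' deposited table. Below them were the triose isomerase Tpi1 (0.63), the glucose phosphate isomerase Gpi1 (0.57) and Aldoa (0.53), the aldolase of muscle, in the authors' deposited table.

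In the payoff phase fewer genes passed, and the contrast with the preparatory phase was not tested. The authors' deposited table called 3 of 8 higher (37.5%, against 25.5% of all genes) and none lower, with a median of 0.48. These were Pgk1, which makes the first ATP of the phase (0.688 ± 0.22, adjusted p = 0.0281), Gapdh, which oxidises glyceraldehyde phosphate (0.648 ± 0.17, adjusted p = 0.0157), and the ubiquitous enolase Eno1 (0.485 ± 0.15, adjusted p = 0.0275). Pyruvate kinase Pkm2 stood at 0.751 in the authors' deposited table, the highest of the phase with 1 row per gene, but had a larger error of 0.30 and just missed the threshold (adjusted p = 0.0575). The mutases that shift the phosphate within phosphoglycerate were also uncalled in the authors' deposited table, with Pgam1 at 0.42 (adjusted p = 0.059) and the muscle form Pgam2 at 0.40 (adjusted p = 0.159). Of the other enolases, the muscle form Eno3 stood at 0.48 (adjusted p = 0.0905) and the neuronal form Eno2 at -0.03 ± 0.22 in the authors' deposited table. Eno2 was the only gene of the 43 below 0 with either siRNA. Its 95% interval with the scrambled siRNA ran from -0.51 to 0.45.

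Lactate dehydrogenase subunits differed in their calls. Ldha, the subunit that prevails in skeletal muscle, stood at 0.843 ± 0.20 with the scrambled siRNA (adjusted p = 0.0112, per the authors' deposited table). Ldhb, the subunit that prevails in heart, stood at 0.317 ± 0.17 in its more precise row and was not called (adjusted p = 0.147, per the authors' deposited table). A further Ldhb row was called at 0.54 (adjusted p = 0.0442, per the authors' deposited table), so that the call depended on the row. The difference between the subunits was not tested, because rows of the same arrays share errors that the table does not give.

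Pyruvate carboxylase and most measured subunits of the pyruvate dehydrogenase complex were called higher. Pcx, the carboxylase that makes oxaloacetate from pyruvate, stood at 0.712 ± 0.24 (adjusted p = 0.0323, per the authors' deposited table). In the authors' deposited table, 3 of the 4 subunits of the complex with a row were called higher with this siRNA. Dld, the dihydrolipoamide dehydrogenase shared with the oxoglutarate complex, had the largest value of all 43 genes in the authors' deposited table, 1.267 ± 0.31 (2.41-fold, adjusted p = 0.013), above 99.2% of all genes. The E1 beta subunit Pdhb stood at 0.66 (adjusted p = 0.0453) and the acetyltransferase Dlat at 0.50 (adjusted p = 0.0383) in the authors' deposited table. The E3-binding protein Pdhx reached 0.59 and fell just short, with an adjusted p of 0.0501 per the authors' deposited table.

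For the 3 listed genes outside the rule, other rows could be read. The mitochondrial pyruvate carrier subunit Mpc1 appeared under its older symbol Brp44l, per RefSeq synonyms, in rows at 0.733 and 0.732 (adjusted p = 0.0166 and 0.0415, per the authors' deposited table). Its partner Mpc2, as Brp44, stood at 0.22 and was not called (adjusted p = 0.456, per the authors' deposited table). Pdha1, the E1 alpha subunit, shared its rows with Map3k15. One such row was called at 0.72 (adjusted p = 0.0368) and the other stood at -0.10 (adjusted p = 0.761) in the authors' deposited table. None of these rows entered the counts.

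Among the kinases that inactivate the complex, values were uneven. Pdk3 stood at 0.851 ± 0.21 (adjusted p = 0.0126, per the authors' deposited table) and Pdk2, a widespread form, at 0.730 ± 0.24 (adjusted p = 0.0289). The starvation-induced Pdk4 reached 0.80 with an error of 0.31 and missed the threshold (adjusted p = 0.0529, per the authors' deposited table). Pdk1, which hypoxia induces, stood at 0.23 ± 0.19 (adjusted p = 0.329, per the authors' deposited table). Thus 2 of 4 kinases were called with this siRNA in the authors' deposited table, and none was below 0.

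The citric acid cycle was called nearly throughout. The authors' deposited table called 11 of 12 mitochondrial enzymes higher with the scrambled siRNA, against 25.5% of all genes. The median of these enzymes was 0.62. The NAD-dependent isocitrate dehydrogenase consists of 3 different subunits, and all were called. Its catalytic subunit Idh3a stood at 1.153 ± 0.28 (adjusted p = 0.0126), and the authors' deposited table gave 0.79 for Idh3b and 0.61 for Idh3g. Suclg2, the GTP-forming subunit of succinyl-CoA ligase, stood at 1.036 ± 0.34 (2.05-fold, adjusted p = 0.0315 per the authors' deposited table). Its partner subunit Suclg1 stood at 0.465 ± 0.17 and the ATP-forming Sucla2 at 0.628 ± 0.19, both called in the authors' deposited table. Fh1, the fumarase, stood at 0.82, the NADP-dependent Idh2 at 0.63, and malate dehydrogenase Mdh2 at 0.61 in the authors' deposited table. The oxoglutarate dehydrogenase subunits Ogdh (0.54) and Dlst (0.53) lay lower and were called too in the authors' deposited table. Citrate synthase Cs, which opens the cycle, was the one enzyme not called, at 0.502 ± 0.22 (adjusted p = 0.0746, per the authors' deposited table).

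The cytosolic counterparts of cycle enzymes showed a like pattern. Idh1, the cytosolic NADP-dependent isocitrate dehydrogenase, had the second largest value in the authors' deposited table, 1.23 ± 0.30 (2.35-fold, adjusted p = 0.0128). Aco1, the cytosolic aconitase that also binds RNA as iron regulatory protein, stood at 0.630 ± 0.21 (adjusted p = 0.032), and the malate dehydrogenase Mdh1 at 0.558 ± 0.18 (adjusted p = 0.0268) in the authors' deposited table. By compartment, 16 of 22 cytosolic enzymes and 17 of 21 mitochondrial proteins were called higher, against 25.5% of all genes. Their medians in the authors' deposited table were 0.63 and 0.63.

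Several rows were held by 6 genes. Such rows may lie on near-identical copies of a transcript, so that they are not independent measurements. In the authors' deposited table, Gapdh had 4 rows between 0.51 and 0.77, all called with this siRNA. Pgk1 had 3 rows between 0.69 and 0.71, also all called, and 2 of them were identical in every deposited value. Among the 3 Pgam1 rows, between 0.42 and 0.422 in the authors' deposited table, 2 were identical as well and none was called. Its 2 rows in the authors' deposited table put Gpi1 at 0.57 and 0.58, both called. For Suclg2 the authors' deposited table gave rows at 1.04 and 0.88, and only the first was called. With the Airn siRNA the same rows stood at 1.04 and 1.02, neither of them called.

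Isozymes of the same enzymes that belong to liver, testis, brain or blood cells were looked at next. In 8 enzymes with such forms, 10 isozymes outside the 43 genes had, in the authors' deposited table, a median of -0.41 with the scrambled siRNA. None of them was called higher and 3 were called lower, while 9 of 13 isozymes among the 43 genes were called higher. Among all genes, 25.5% were called higher and 17.2% lower in that comparison. The choice of enzymes was made after values had been seen. The testis-specific phosphoglycerate kinase Pgk2 was called lower (-0.634 ± 0.18, adjusted p = 0.0203), in contrast to Pgk1, in the authors' deposited table. The testis aldolases differed in sign, with Aldoart1 at 0.45 (adjusted p = 0.103) and Aldoart2 called lower at -0.67 (adjusted p = 0.0121) in the authors' deposited table. Of the other hexokinases, Hk3 stood at -0.28 and Hkdc1 at -0.51, the last called lower (adjusted p = 0.045), in the authors' deposited table. The liver and red cell pyruvate kinase Pklr (-0.35), the testis lactate dehydrogenase Ldhc (-0.46), Eno4 (-0.56) and Ogdhl (-0.32) were all below 0 and uncalled in the authors' deposited table. The sperm enzyme Gapdhs stood at 0.03 in its more precise row and -0.54 in another, neither of them called in the authors' deposited table. The wider list of 13 isozymes and transporters had 5 called lower, against 17.2% of all genes, and none higher in the authors' deposited table. Bpgm, the bisphosphoglycerate mutase of red cells, was above 0 at 0.28 and uncalled in the authors' deposited table. The list included the testis pyruvate dehydrogenase subunit Pdha2 (-0.929 ± 0.25, adjusted p = 0.0158) and the liver glucose transporter Slc2a2 (-0.949 ± 0.21, adjusted p = 0.00964).

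**Figure D2:**
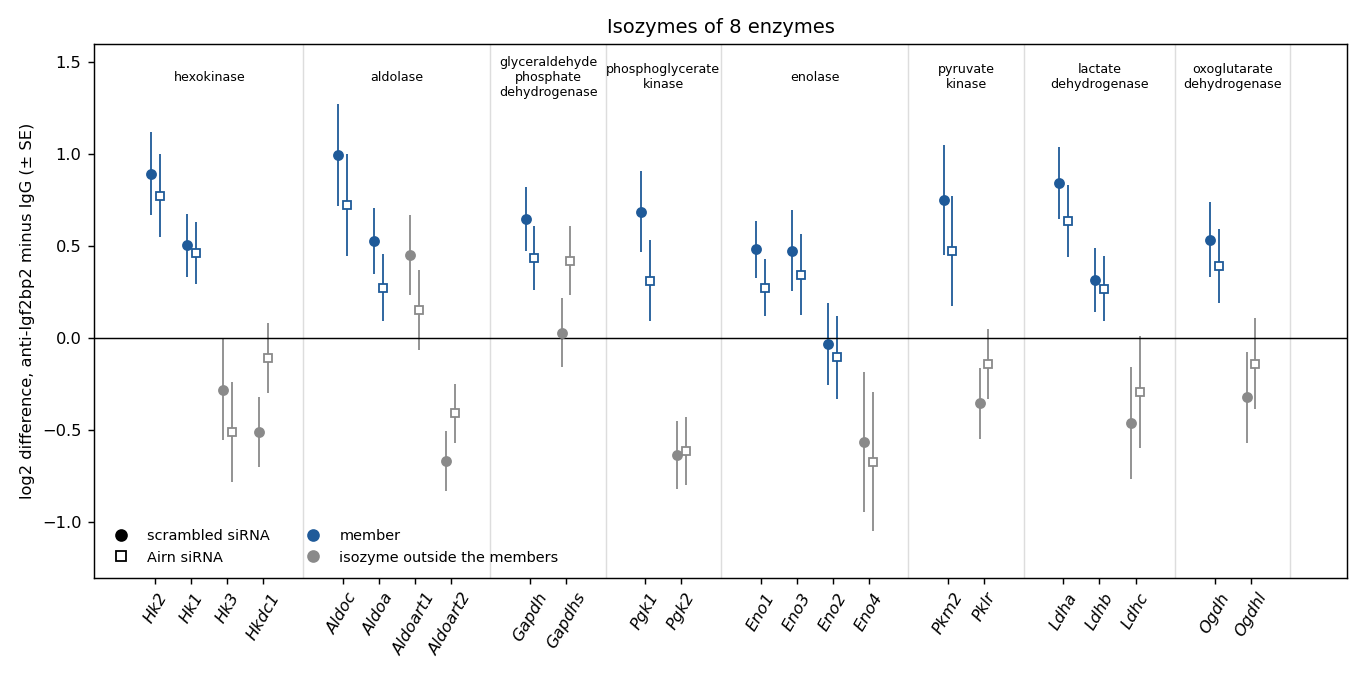
Log2 difference, anti-Igf2bp2 minus IgG (y axis) for isozymes of 8 enzymes, with the scrambled siRNA (filled circles) and the Airn siRNA (open squares); bars are recovered standard errors. Isozymes among the 43 genes (blue) lie above 0 except Eno2, and the others (grey) lie below 0 with the scrambled siRNA except Aldoart1 and Gapdhs.

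Other genes of central carbon metabolism, taken from fixed lists, were set beside these. Among all genes, 25.5% were called higher and 17.2% lower with the scrambled siRNA. The subunits of succinate dehydrogenase, which feeds electrons from the cycle into the respiratory chain, had 3 of 4 called higher with none lower in the authors' deposited table (median 0.71). Sdha stood at 0.76, Sdhc at 0.75 and Sdhd at 0.67, and Sdhb at 0.46 was not called (adjusted p = 0.0676), in the authors' deposited table. Malic enzymes, aminotransferases and citrate export had 8 of 11 called higher and none lower with 1 row per gene, with a median of 0.68, led by the oxoglutarate carrier Slc25a11 (1.06) and the citrate carrier Slc25a1 (0.99) in the authors' deposited table. The malic enzymes Me1 (0.96) of the cytosol and Me2 (0.96) of mitochondria were among those called in the authors' deposited table. Another malic enzyme, Me3, had rows called in opposite directions, at 0.66 with an error of 0.20, which entered the count, and at -0.71 with an error of 0.22 (adjusted p = 0.0246), in the authors' deposited table; it was named after its values were seen. Of 8 genes of the pentose phosphate pathway, 3 were called higher with none lower in the authors' deposited table. G6pdx, its entry enzyme, stood at 0.96 and Rpe at 0.79, both called, while Pgd (0.58) and H6pd (0.53) were not, in the authors' deposited table.

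Per the authors' deposited table, 4 of 15 genes of gluconeogenesis and glycogen were called higher and 5 were called lower, against 25.5% and 17.2% of all genes. The glycogen branching enzyme Gbe1 (1.32) and the phosphoglucomutase deposited under the symbol Pgm1 (0.93) were higher in the authors' deposited table. Lower there were the muscle fructose bisphosphatase Fbp2 (-1.11) and glucose-6-phosphatase G6pc (-0.89). Transporters of glucose and lactate had 3 of 8 called higher, against 25.5% of all genes, and none lower. Those called higher included the lactate carrier Slc16a1 (1.01) and the glucose carrier Slc2a1 (0.72) in the authors' deposited table. The insulin-responsive Slc2a4 stood at 0.57 (adjusted p = 0.0584) and the neuronal Slc2a3 at -0.23 in the authors' deposited table. Regulators of phosphofructokinase and pyruvate dehydrogenase had 6 of 10 called higher but 1 lower in the authors' deposited table. The phosphatase regulator Pdpr (1.36), the bifunctional enzyme Pfkfb1 (1.21), the lipoic acid synthase Lias (0.75) and the phosphatase Pdp2 (0.70) had the largest averages over both siRNAs and were called with the scrambled siRNA, at these values in the authors' deposited table. So was the phosphatase Pdp1, at 0.82 in the authors' deposited table, named after its value was seen. The 1 called lower was Pfkfb4 (-0.61 in the authors' deposited table), named after its value was seen. Transcription factors and oxygen sensors that act on glycolytic and oxidative genes had 9 of 14 called higher with none lower in the authors' deposited table, with the prolyl hydroxylase Egln1 at 1.22, Tfam at 0.99 and Vhl at 0.70. Myc stood at 0.62 and was not called (adjusted p = 0.125, per the authors' deposited table).

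**Figure D3:**
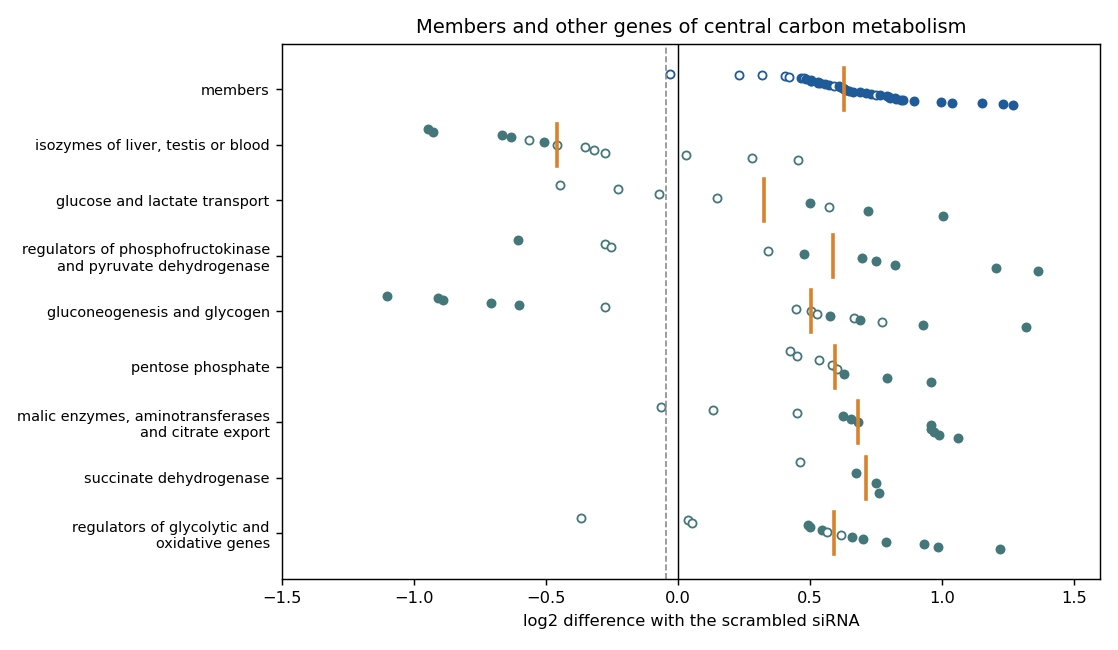
Log2 difference with the scrambled siRNA (x axis) for the 43 genes (top line, blue) and for 8 lists of other carbon metabolism genes (green); filled points have an adjusted p under 0.05, orange bars are list medians and the dashed line is the median of all genes, -0.05. The 43 genes have a median of 0.63, and the isozymes of liver, testis or blood have a median of -0.46.

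With the Airn siRNA, no gene of the 43 was called, although nearly all kept a positive value. The authors' deposited table called 0 of 43, where it called 0.63% of all rows higher (0.813% with 1 row per gene) and 0.425% lower. Of the 8 atrial cardiomyocyte markers, 2 were called higher with this siRNA in the authors' deposited table, namely Nppa (1.03) and Myl4 (0.78). With the scrambled siRNA Nppa stood at 0.19 and was not called (adjusted p = 0.493, per the authors' deposited table). The part of the markers in the values of the 43 genes was not tested. The median of the 43 genes was 0.41 and the range -0.10 to 1.04 in the authors' deposited table. At an unadjusted p under 0.05, 16 of 43 genes were higher with none lower in the authors' deposited table, against 21.3% higher among all genes. The largest value belonged to Suclg2, at 1.036 ± 0.34 (adjusted p = 0.086), followed by Idh1 at 0.84 ± 0.30 (adjusted p = 0.0955) and Hk2 at 0.774 ± 0.23 (adjusted p = 0.0715) in the authors' deposited table. Aldoc (0.72), Aco1 (0.68), Idh3a (0.68) and Ldha (0.64) came next in the authors' deposited table. An adjusted p under 0.10 was reached by 7 genes in the authors' deposited table, namely Hk1, Hk2, Gpi1, Ldha, Aco1, Idh1 and Suclg2.

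At the lower end with this siRNA were Eno2 (-0.10), Pgam2 (0.10), Pdk3 (0.11) and Dld (0.16) in the authors' deposited table. Dld lay above 99.2% of all genes with the scrambled siRNA and above 56.2% of them with the Airn siRNA. For Pdk3 the corresponding shares were 89.6% and 54.2%. Of the other pathway genes, Pfkfb2, a heart form of the bifunctional enzyme that sets fructose 2,6-bisphosphate, was called with the Airn siRNA, at 0.81 (adjusted p = 0.0433, per the authors' deposited table). So was the ubiquitin ligase subunit Vhl, at 0.80 (adjusted p = 0.0499, per the authors' deposited table). Pfkfb2 was named after its value was seen, and no other gene of the 8 lists was called with this siRNA in the authors' deposited table.

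**Figure D4:**
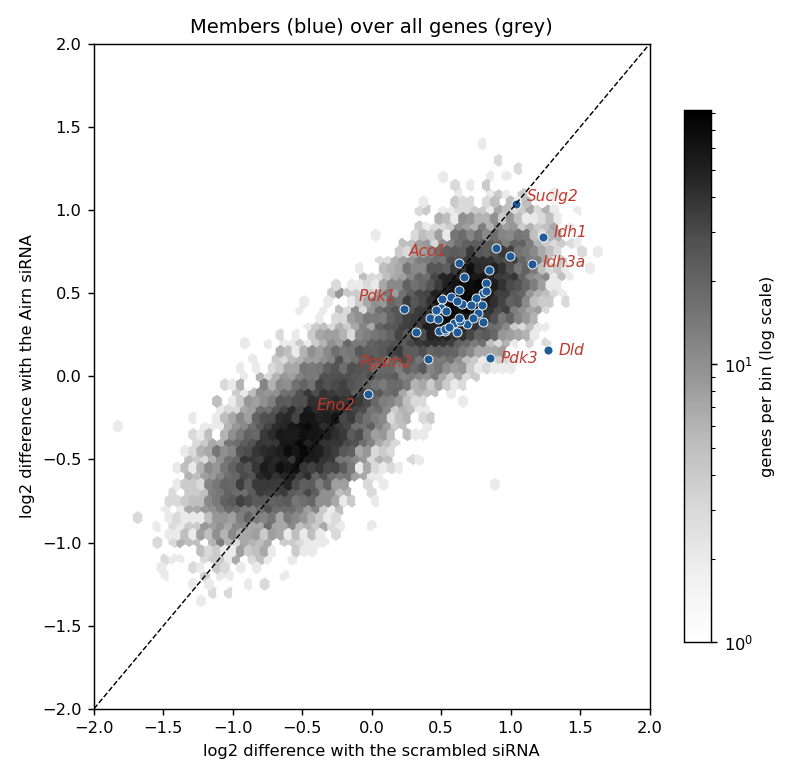
Log2 difference with the scrambled siRNA (x axis) against that with the Airn siRNA (y axis) for the 43 genes (blue points) over all genes with a single symbol (grey bins, log colour scale); the dashed line marks equal values. 40 of the 43 points lie under the line, and Dld and Pdk3 lie farthest from it.

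The change of enrichment, taken as the difference with the Airn siRNA minus that with the scrambled siRNA, asks whether silencing Airn altered the RNA bound by Igf2bp2. It was computed here from the deposited differences, with errors taken as independent because the comparisons share no arrays. Of the 43 genes, 40 had a lower value with the Airn siRNA, 2 a higher one and 1 the same, with a median change of -0.25. Among all genes 51.2% had a lower value, and the median change was -0.01. Among the 5149 genes called higher with the scrambled siRNA, which were selected for high values there, 90.2% had a lower value with the Airn siRNA and the median change was -0.28. The 33 genes of these pathways in that class had a median change of -0.26. Among the cell type markers, the unadjusted p was under 0.05 for Nppa, with a change of 0.84 ± 0.32, and for Dcn, with -0.85 ± 0.33 (adjusted p = 0.998 for each). Genes share the arrays of each comparison, so that the 40 lower values are not 40 separate observations.

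No single gene passed in the test of the change, in these pathways (0 of 43) or over all rows (0.0% called, adjusted p from the recovered standard errors). At an unadjusted p under 0.05 there were 2 of the 43, against 2.73% of all genes. These were Dld, with a change of -1.108 ± 0.44 (95% interval -2.05 to -0.17, unadjusted p = 0.0237, adjusted p = 0.998), and Pdk3, with -0.738 ± 0.29 (95% interval -1.36 to -0.11, unadjusted p = 0.0232, adjusted p = 0.998). In the other lists the same test gave Taldo1 at -0.639 (unadjusted p = 0.0218). It also gave Slc2a2 at 0.646 (unadjusted p = 0.0422) and Ppara at 1.002 (unadjusted p = 0.0468), each with an adjusted p of 0.998. Taldo1 and Ppara were named after their values were seen. Dld encodes the E3 subunit of pyruvate dehydrogenase, shared with the oxoglutarate complex, and Pdk3 a pyruvate dehydrogenase kinase. A common change of these genes was not tested, and the other genes of the complex had smaller changes. The change was -0.04 ± 0.25 for Dlat, -0.07 ± 0.35 for Pdhb and -0.27 ± 0.32 for Pdhx. Of the other kinases, Pdk4 had a change of -0.47 ± 0.44 and Pdk2 one of -0.38 ± 0.33. The remaining kinase Pdk1 had a positive value, 0.18 ± 0.27 (95% interval -0.40 to 0.76).

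In glycolysis all 17 genes had a lower value with the Airn siRNA, by amounts from -0.38 for Pfkm to -0.04 for Hk1, and each 95% interval included 0. For Gapdh, often used as a reference transcript, the change was -0.21 ± 0.24 (95% interval -0.73 to 0.31). In the citric acid cycle, 11 of 12 mitochondrial enzymes had a lower value, led by Idh3a (-0.48 ± 0.40). Suclg2 had the same value with both siRNAs in its more precise row. Its change of 0 carried a 95% interval from -1.03 to 1.03, the widest of the 43 with 1 row per gene. The other Suclg2 row was higher with the Airn siRNA, with a change of 0.15 ± 0.51 (95% interval -0.94 to 1.24). The 95% intervals of the change reached at least 0.46 to either side in every gene, with a median of 0.65. For 15 genes the interval extended below -1, so that it included a drop as large as the inverse of a doubling.

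**Figure D5:**
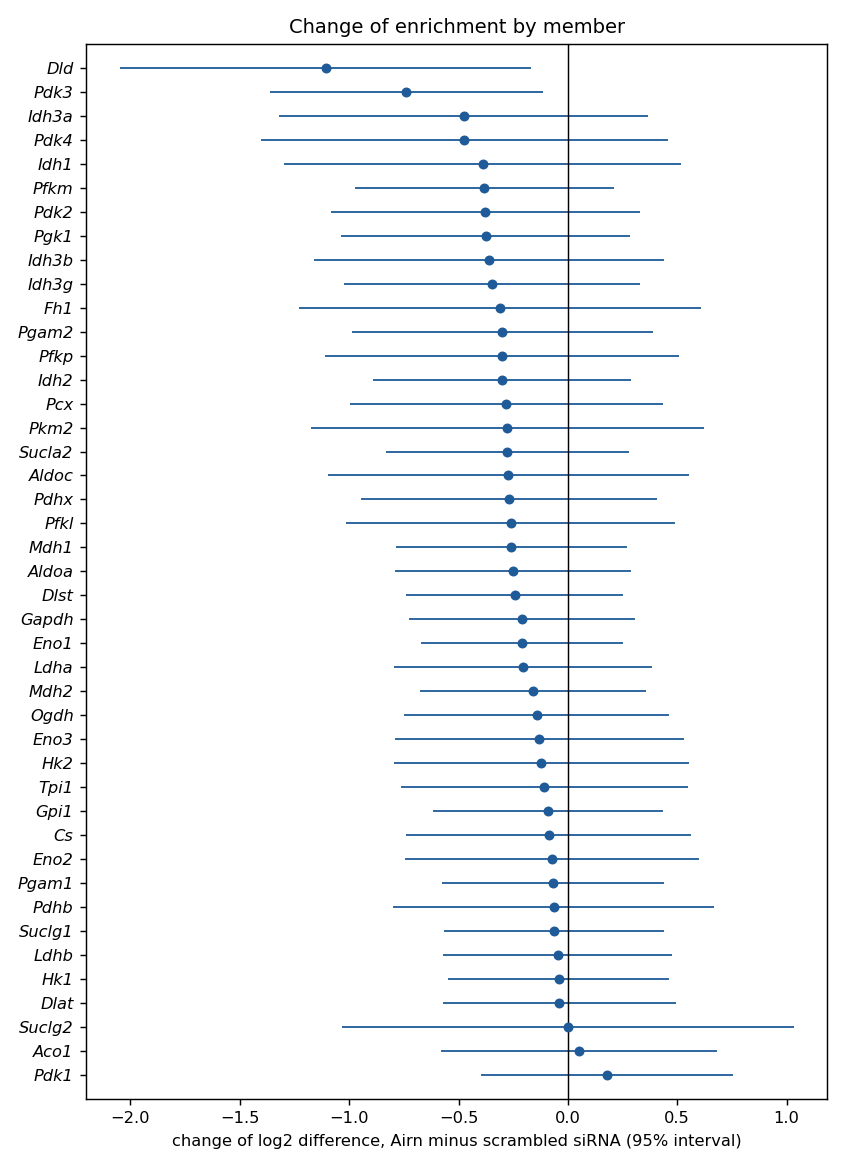
Change of the log2 difference, Airn siRNA minus scrambled siRNA (x axis), for each of the 43 genes with its 95% interval, ordered by size. The intervals of Dld and Pdk3 lie below 0 before adjustment, and the other 41 include 0.

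Averaged over both siRNAs, 39 of 43 genes were called higher and none lower, where 29.2% of all rows and 35.8% of all genes were called higher. The average was computed here with errors taken as independent. The largest averages were those of Suclg2 and Idh1, each 1.04, followed by Idh3a at 0.92 ± 0.20 and Aldoc at 0.86 ± 0.19. The less precise Suclg2 row had an average of 0.95. The smallest adjusted p was that of Ldha and Hk2, each 0.002. The 4 genes not called were Eno2 (-0.07), Pgam2 (0.25), Ldhb (0.29, adjusted p = 0.0519) and Pdk1 (0.32, adjusted p = 0.0548). All 9 genes of the preparatory phase, 6 of 8 of the payoff phase, all 4 measured subunits of pyruvate dehydrogenase and all 12 mitochondrial enzymes of the cycle were called in the average.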

How the data were processed

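RNA from anti-Igf2bp2 and IgG precipitates of HL-1 cells was measured on 16 arrays in 4 groups of 4. Per the file headers, the authors deposited a table of differences between groups, each with its p-value and adjusted p-value. The headers give no scale; the deposited differences were taken as log2 values and the base was not tested. For array type, software, normalization and model the sources used here give nothing, and precision is limited by the number of arrays. The standard error of each row was recovered from the difference and p: 16.13 degrees of freedom made both comparisons give the same error, with a median disagreement of 0.0588% over 24078 rows. For 10 rows it is an upper bound. The change and the average were tested with the t distribution and Benjamini-Hochberg adjustment over all rows (scipy 1.17.1), and the recovery was tested on simulated arrays with limma 3.58.1. A gene with several rows is described by the row with the smallest standard error. Every gene of the 43 could be named, and up to 4 genes of each other list, those with the largest absolute average; further isozymes of the same enzymes, and other genes marked so, were named after their values were seen. Some genes of the other lists are not reported here and were left out of those lists' counts. The members and lists were chosen with earlier results of these data known. Alternatives changed the rows adjusted, centring, threshold, fold minimum, row choice, error correlation and degrees of freedom. Transcript sequences were not used here.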

Additional observations from a re-analysis of the deposited data

Results flagged for a closer look

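Dld and Pdk3 had an unadjusted p under 0.05 in the test of the change between the siRNAs. The change was -1.108 for Dld (unadjusted p = 0.0237) and -0.738 for Pdk3 (unadjusted p = 0.0232), and with Benjamini-Hochberg adjustment over all rows neither passed (adjusted p = 0.998 for each). They were 2 of 43 genes, where 2.73% of all genes had an unadjusted p under 0.05. Single-array values were not used, so that no array could be examined for its part in either value.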

How the results depend on the processing

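The 33 genes called higher with the scrambled siRNA became 35 with the adjustment over single-symbol rows alone, 39 with the comparison centred on its median over all rows (-0.10), 39 at a threshold of 0.10 and 24 with a minimum of 1.5-fold. The count was 33 with the less precise row per gene, with Ldhb gained and Suclg2 lost, and 29 of 37 among genes with 1 row, an alternative chosen after seeing the data. At a threshold of 0.01 the count fell to 0. The 0 calls with the Airn siRNA became 7 at a threshold of 0.10 and stayed 0 otherwise. The 39 calls in the average became 18 at a threshold of 0.01 and 14 with the fold minimum. Over the 43 genes they lay between 35 and 41 otherwise, and 34 of 37 genes with 1 row were called. No alternative gave a call in the change. Centring turned Eno2 from below to above 0 with the scrambled siRNA (0.0705) and in the average (0.01225). Centring also moved the share of higher calls among all called rows. This share rose from 54.9% to 68.8% with the scrambled siRNA and from 59.7% to 80.2% with the Airn siRNA. No paired analysis was possible because the table holds comparisons and no values of single arrays, and for the same reason leaving out replicates was not run. The recovered errors rest on 1 spread per row.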
